A study of Mus musculus with 22 samples.

Results

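The tumour suppressor p53 is a transcription factor that halts the cell cycle or starts apoptosis after DNA damage or oncogene signals. The Cdkn2a locus encodes p19Arf, which binds the ubiquitin ligase Mdm2 and so keeps p53 from being degraded, and p16Ink4a, an inhibitor of cyclin D kinases. Myc induces p19Arf and p53, and loss of either is a known route to lymphoma in Eμ-Myc mice. Described here are 9 genes of this pathway: Cdkn2a and Mdm2 upstream of p53, and its targets Cdkn1a, Btg2, Trp53inp1, Sesn1, Plk2, Ccng1 and Aen. They were taken by name, are 9 of the 12393 genes with a probe set of their own on the array, and are measured by 19 probe sets.

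The arrays are Affymetrix MOE430A, with 1 array per sample, and fall into 3 stages. There are 4 arrays of wild type B cells, 5 of premalignant Eμ-Myc B cells and 13 of lymphomas from separate Eμ-Myc mice, all on the C57Bl/6 background. In the transgene an immunoglobulin heavy chain enhancer drives Myc, so that its expression is directed to the B lineage. Wild type and premalignant cells are labelled B220 positive and came from littermates aged 4 to 6 weeks. The labels print that age for the lymphomas too, and no use was made of it. Cells were isolated with magnetic beads against B220 or IgM. Whether an array holds bone marrow or spleen is not stated, nor is the status of Trp53 or Cdkn2a in a lymphoma, and the level of Trp53 was not analysed here. In such bulk samples fewer cells of a type and less RNA per cell cannot be told apart.

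Values are log2 of the deposited GCRMA intensity. A probe set counts as measured on an array above log2 4, and a gene was tested where a probe set of it passed that level on at least 4 arrays. By this rule 6437 genes were tested, among them 7 of the 9. Cdkn2a and Cdkn1a were not, because Cdkn2a was above log2 4 on 0 arrays and Cdkn1a on 3. Of the 19 probe sets 15 passed. Each gene is described first through its brightest probe set. Brightness is not compared between genes, since probe sets differ in their response.

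Of 8 B lineage markers 5 were above log2 4 on every array of all 3 stages, Cd79a and Cd79b among them, and Pax5 was below it on all arrays. The summed B lineage intensity was 19459 to 23595 in wild type, 13051 to 16868 in premalignant and 4135 to 9824 in malignant arrays, with no overlap, and 4 of 7 tested B lineage markers fell at the malignant step. The beta-actin 3′ to 5′ difference, a measure of RNA integrity, was 0.77 ± 0.095 log2 units in wild type, 0.70 ± 0.085 in premalignant and 1.93 ± 0.37 in malignant arrays (SD, n = 4, 5 and 13), and so moved with the malignant step. Its part in the changes at that step was not tested. The summed intensity of 8 stromal and endothelial markers was 265 to 302 in wild type, 139 to 195 in premalignant and 301 to 3570 in malignant arrays, and was highest in lymphomas 1, 5 and 11. Of the endothelial genes in that list, Cdh5 and Vwf were below log2 4 on all lymphoma arrays, and Pecam1, which blood cells also express, was above it on all 13, at 4.13 to 6.86. The sum of 5 erythroid markers was highest in premalignant replicate 2 (3008) and wild type replicates 2 (1079) and 1 (270), while lymphomas had 35.5 to 110. T cell markers were near the floor throughout, with sums of 36.6 to 57.2. Macrophage marker sums were 794 to 2040 in wild type, 394 to 1524 in premalignant and 784 to 4698 in malignant arrays, highest in lymphomas 7 (4698), 3 (4319) and 6 (3326). Neutrophil marker sums were 78.0 to 644, 451 to 937 and 67.9 to 6164 in the same order, highest in lymphomas 10 (6164) and 4 (4145). Plasma cell marker sums were 2663 to 4592, 1237 to 3193 and 217 to 917, and 3 of 4 tested plasma cell markers fell at the malignant step. At that step 17.3% of all tested genes fell. The part of other cells in the changes below was not tested.

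A p53-responsive gene carries pairs of a 10-base consensus decamer to which p53 binds. The window from 250 bases before to 50 after each annotated start site was searched in RefSeq promoter sequences of build GRCm38.p6 for the exact decamer, whose reverse complement is the same consensus. The decamer stood in 5 of the 8 genes with a promoter entry, and in 9.55% of all 27025 genes in that table. The 8 were chosen as p53 pathway genes, so this is a description and not a test. No match was present in the windows of Btg2, Plk2 and Cdkn2a. The stretches with a match are shown because they mark the genes whose promoter-proximal sequence holds the motif, 5′ to 3′ along the gene, with the decamer in capitals. They lie at chr17:29090881-29090962 on the plus strand (Cdkn1a), chr10:117710910-117710969 on the minus strand (Mdm2), chr11:40755437-40755496 on the minus strand (Ccng1), chr7:78895927-78895956 on the plus strand (Aen) and chr10:41887241-41887300 on the plus strand (Sesn1).
Cdkn1a: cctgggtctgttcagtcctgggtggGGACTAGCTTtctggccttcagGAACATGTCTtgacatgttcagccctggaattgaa
Mdm2: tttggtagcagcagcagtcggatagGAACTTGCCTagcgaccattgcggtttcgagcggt
Ccng1: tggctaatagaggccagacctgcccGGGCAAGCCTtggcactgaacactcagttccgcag
Aen: agccgaagccGGGCTTGTCCgggcaaggag
Sesn1: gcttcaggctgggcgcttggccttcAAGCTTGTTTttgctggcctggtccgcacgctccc
The matches of Cdkn1a begin 73 and 51 bases before the more upstream of its start sites, and those of Mdm2 and Ccng1 186 and 185 bases before theirs. In Aen the match lies 121 bases before its downstream start site, and in Sesn1 173 bases before its downstream one. A match says nothing on whether p53 was bound in these cells.

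At the premalignant step, set against wild type cells, Plk2 rose, Sesn1 fell, and the other 5 tested genes did not pass (limma, adjusted p under 0.05 after Benjamini-Hochberg correction across the tested genes). That is 1 higher and 1 lower of 7, while 26.8% of all tested genes passed, 12.7% higher and 14.1% lower. Plk2 was above log2 4 on 4 premalignant arrays, 1 lymphoma and 0 wild type arrays, so it entered the test through the premalignant arrays, and its call does not count as support. Without the filter on dim probe sets it did not pass (adjusted p = 0.062), which leaves Sesn1. At the malignant step, set against premalignant cells, Btg2, Trp53inp1, Mdm2 and Plk2 fell and Aen rose, while Sesn1 and Ccng1 did not pass. That is 5 of 7 where 42.1% of all genes passed (24.8% higher and 17.3% lower). The 5 include Plk2, which entered through the premalignant arrays, so its call again does not count as support. Without the filter its fall passed (adjusted p = 8.94e-04). Set against wild type cells, Btg2, Trp53inp1, Sesn1 and Mdm2 fell in lymphomas and Aen rose, which is again 5 of 7 where 61.5% of all genes passed (31.8% higher and 29.7% lower). The median log2 change of the 7 genes, Plk2 included, was 0.16, -1.18 and -1.28 in these comparisons, beside -0.054, 0.089 and 0.041 over all tested genes. With arrays centred on the hybridisation spikes, 81.2%, 68.3% and 74.9% of the calls over all genes were higher, beside 47.4%, 58.9% and 51.7% without. The comparisons share arrays, so their changes are not independent of each other. Where each probe set was tested on its own, its p was adjusted over all of them.

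**Figure D1:**
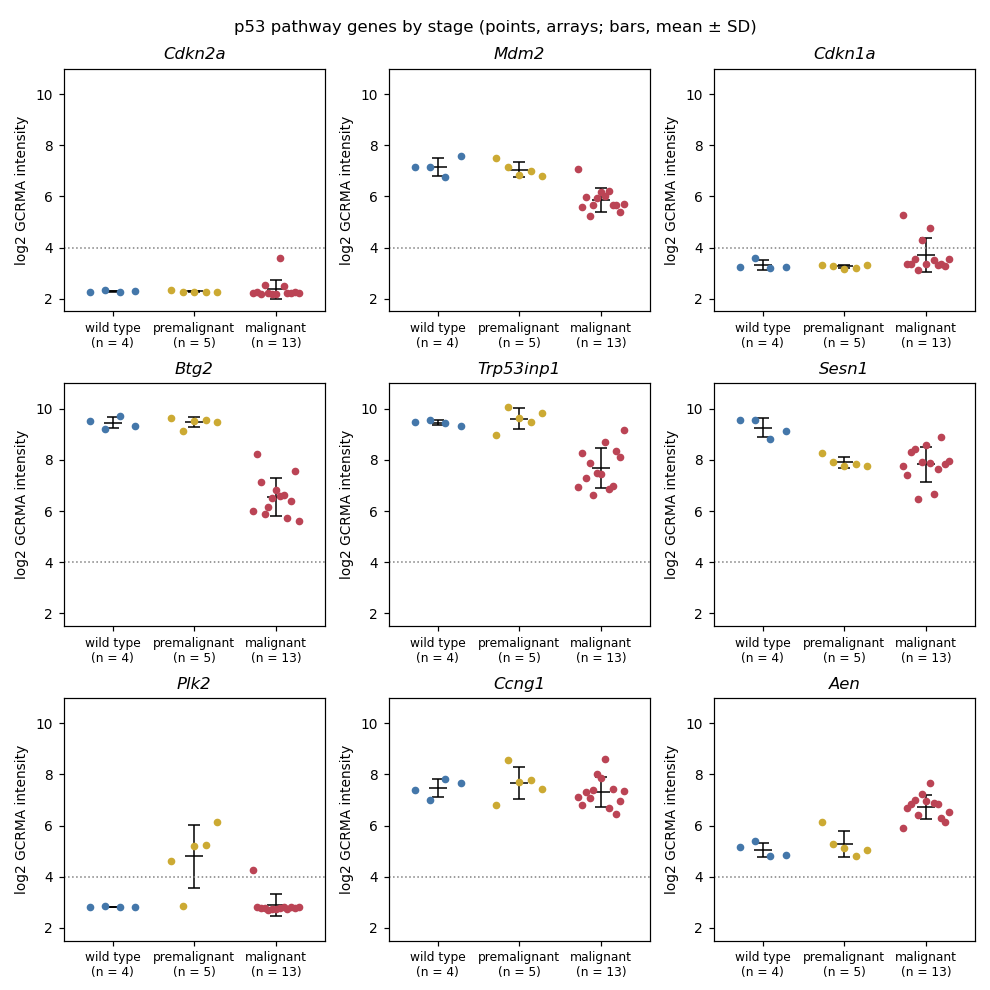
Log2 GCRMA intensity of the brightest probe set of each gene on the 4 wild type, 5 premalignant and 13 malignant arrays (points), with mean ± SD; the dotted line is log2 4. All 13 lymphomas lie below every premalignant array for Btg2, and single lymphomas stand above log2 4 for Cdkn1a and Plk2.

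**Figure D2:**
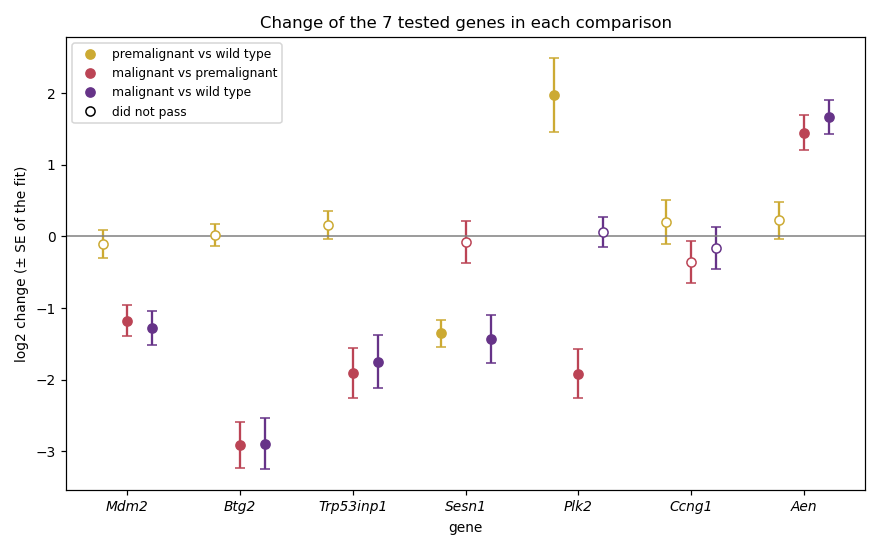
Log2 change of the 7 tested genes in each comparison (first-named stage minus second, ± SE of the limma fit); filled points passed at an adjusted p under 0.05 and open points did not. At the malignant step 4 genes fell and Aen rose. Plk2, 1 of the 4, entered the test through the premalignant arrays.

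Cdkn2a, the upstream activator of p53, was at the floor of the array at every stage. Its only probe set read 2.27, 2.32, 2.28 and 2.28 in wild type cells and 2.35, 2.28, 2.27, 2.27 and 2.28 in premalignant cells. In lymphomas the lowest, median and highest values were 2.19, 2.23 and 3.57. Lymphoma 8 held the highest value, followed by lymphomas 4 (2.52) and 9 (2.50), and every value lay below log2 4. No fold is given, because all stage means were under the level at which the probe set counts as measured. Without the filter on dim probe sets, Cdkn2a did not pass at either step (limma adjusted p = 1 and 0.709) or between lymphomas and wild type cells (0.724). A low reading of a single probe set does not show that the locus was silent or lost.

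Of the genes beside Cdkn2a on its chromosome, Cdkn2b, another inhibitor of cyclin D kinases, was likewise below log2 4 on all arrays, with a highest value of 3.24. Mtap, a methionine salvage enzyme, was measured on every array. It was 2.22-fold higher in lymphomas than in premalignant cells (7.59 ± 0.55 against 6.44 ± 0.32, SD, n = 13 and 5; limma adjusted p = 0.0011). Its lowest lymphoma value was 6.39, in lymphoma 13, and its highest was 8.75, in lymphoma 1, so Mtap signal was present on every lymphoma array. Which cells of these bulk samples gave that signal was not tested. Klhl9, the remaining tested neighbour, did not pass in any comparison.

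Among 18 tested genes that act on the Cdkn2a locus in other settings, 3 rose and 7 fell at the malignant step. The Polycomb methyltransferase Ezh2, which represses the locus, rose 4.36-fold in premalignant over wild type cells (8.26 ± 0.38 against 6.13 ± 0.21, SD, n = 5 and 4; adjusted p = 1.01e-04). It rose a further 1.75-fold in lymphomas over premalignant cells (9.06 ± 0.36 against 8.26 ± 0.38, SD, n = 13 and 5; adjusted p = 0.00196). Its partner Suz12 rose 1.46-fold and E2f1, an activator of p19Arf, 1.48-fold at the malignant step. Runx1 fell at least 2.06-fold, Ets1 3.75-fold and Foxo1 2.64-fold at that step. In premalignant against wild type cells 1 of the 18 rose and 9 fell, and in lymphomas against wild type cells 3 rose and 10 fell. The median change of the 18 was -0.14 at the malignant step and -0.30 at the premalignant step, beside 0.089 and -0.054 over all genes. Calls over all tested genes came to 42.1% at the malignant step and 26.8% at the premalignant step. They came to 61.5% in lymphomas against wild type cells.

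Mdm2, the ligase that degrades p53 and is itself a p53 target, did not pass at the premalignant step and fell in lymphomas. Its brightest probe set read 7.49, 7.13, 6.85, 6.98 and 6.79 in premalignant cells, against 7.14, 7.14, 6.75 and 7.59 in wild type cells. These groups overlapped, and the change of -0.10 ± 0.20 (log2, SE) did not pass (adjusted p = 0.744). In lymphomas the lowest, median and highest values were 5.23, 5.72 and 7.08. Mdm2 thus averaged 5.87 ± 0.47 in lymphomas and 7.05 ± 0.28 in premalignant cells (SD, n = 13 and 5), 2.26-fold lower (adjusted p = 2.6e-04). Lymphoma 1, at 7.08, lay within the premalignant range, and the other 12 lymphomas, up to 6.22, lay below every premalignant and wild type array. The other Mdm2 probe set, 1423605_a_at, did not follow. It read 4.54 ± 0.27 in lymphomas and 4.55 ± 0.10 in premalignant cells (SD, n = 13 and 5), a log2 change of -0.0077 (adjusted p = 0.97 over all probe sets). Lymphoma 1 was also highest on that probe set, at 5.35, with the next lymphoma at 4.74. Against wild type cells the brightest probe set was 2.43-fold lower in lymphomas (adjusted p = 1.72e-04), a call that ended when arrays were centred on the hybridisation spikes (log2 -0.89, adjusted p = 0.0567).

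Among 24 tested regulators of p53 and Mdm2, 12 rose and 5 fell at the malignant step, where 42.1% of all tested genes passed. Their median log2 change was 0.43, beside 0.089 over all genes. The checkpoint kinase Chek1, which phosphorylates p53, rose 3.27-fold in lymphomas over premalignant cells (6.05 ± 0.36 against 4.34 ± 0.50, SD, n = 13 and 5; adjusted p = 2.94e-06). The nucleolar protein Gnl3, a binder of Mdm2, rose 2.48-fold, and the kinase Hipk2 2.35-fold. The ubiquitin-conjugating enzyme Ube2d1, which works with Mdm2, fell 2.58-fold, the p53 ligase Rchy1 1.91-fold and the SUMO ligase Pias1 by 0.58 on the log2 scale. In premalignant against wild type cells 6 rose, among them Chek1 (at least 1.27-fold), Gnl3 (2.38-fold) and the methyltransferase Prmt5 (log2 change 1.07), and 2 fell, Pias1 (1.64-fold) and Crebbp (1.43-fold). Against wild type cells 12 rose and 5 fell in lymphomas, with Kmt5a 4.08-fold higher. By comparison, 26.8% of all tested genes passed at the premalignant step and 61.5% in lymphomas against wild type cells.

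Cdkn1a, which encodes the CDK inhibitor p21 and is the standard p53 target in cell cycle arrest, was measured only in lymphomas 1, 6 and 8. Its brighter probe set read 5.29 in lymphoma 1, 4.75 in lymphoma 8 and 4.30 in lymphoma 6. The other 10 lymphomas lay at 3.11 to 3.57, premalignant cells at 3.33, 3.29, 3.18, 3.20 and 3.33, and wild type cells at 3.25, 3.60, 3.21 and 3.24. The stages overlapped, and without the filter the gene did not pass at the malignant step (log2 change 0.44, adjusted p = 0.221). On its other probe set, 1421679_a_at, all arrays were below log2 4, but the highest readings were again those of lymphoma 1 (3.25) and lymphoma 8 (2.44).

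Btg2, an antiproliferative gene induced by p53 and by growth signals, had the largest change of the 7 tested genes at the malignant step. It read 9.66, 9.12, 9.52, 9.56 and 9.50 in premalignant cells, against 9.53, 9.22, 9.70 and 9.34 in wild type cells, and these groups overlapped (log2 change 0.025 ± 0.15, SE; adjusted p = 0.927). In lymphomas the lowest, median and highest values were 5.63, 6.51 and 8.23. Every lymphoma lay below every premalignant and wild type array. In either direction, 12.2% of all tested genes had no overlap between lymphomas and premalignant arrays. Between lymphomas and wild type arrays the share was 33.7%. Btg2 averaged 6.56 ± 0.75 in lymphomas and 9.47 ± 0.20 in premalignant cells (SD, n = 13 and 5), 7.56-fold lower (adjusted p = 1.33e-06). Its other probe set, 1448272_at, fell 3.80-fold, again with no overlap of the groups. Lymphomas 2 (8.23) and 12 (7.56) had the highest levels and lymphomas 13 (5.63) and 10 (5.71) the lowest.

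Because Btg2 also responds to growth signals as an immediate early gene, it is set beside a list of such genes. Of 19 tested members of that list 17 fell in lymphomas against premalignant cells and 0 rose, with a median log2 change of -2.12. At an unadjusted p under 0.05 in limma 0 rose as well. Fos fell at least 80.3-fold, Jun at least 13.7-fold and Fosb at least 4.41-fold. Against wild type cells 17 fell and 0 rose (0 at an unadjusted p under 0.05), with a log2 change of -3.81 for Zfp36. In premalignant against wild type cells 5 of the 19 fell and 0 rose (2 rose at an unadjusted p under 0.05 in limma). The falls were led by Nfkbia (2.12-fold) and Ier5 (1.82-fold), while Btg2 did not pass. The share of all tested genes that fell was 17.3% at the malignant step and 14.1% at the premalignant step. It was 29.7% in lymphomas against wild type cells.

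Trp53inp1, a stress protein that p53 induces and that promotes p53-dependent apoptosis, fell in lymphomas with a wide spread among them. Its brighter probe set, 1416926_at, read 8.99, 10.1, 9.63, 9.49 and 9.85 in premalignant cells, against 9.47, 9.56, 9.44 and 9.32 in wild type cells. In lymphomas the lowest, median and highest values were 6.63, 7.47 and 9.18. Lymphoma 13, at 9.18, was the only lymphoma to reach the premalignant range, and lymphoma 8 followed at 8.71. Trp53inp1 averaged 7.70 ± 0.79 in lymphomas and 9.61 ± 0.41 in premalignant cells (SD, n = 13 and 5), 3.76-fold lower (adjusted p = 2.35e-04).

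The dimmer Trp53inp1 probe set, 1416927_at, showed a rise before the fall. It was above log2 4 on 5 premalignant, 3 wild type and 0 malignant arrays. It thus passed the filter only through the premalignant arrays, so its calls do not count as support. It read 5.38, 5.02, 6.58, 6.42 and 6.55 in premalignant cells, against 4.54, 3.37, 4.80 and 4.81 in wild type cells. These groups did not overlap, and the probe set was 3.05-fold higher in premalignant cells (adjusted p = 0.016 over all probe sets). In all 13 lymphomas it lay below log2 4, at 2.82 to 3.17, at least 3.97-fold lower than in premalignant cells (adjusted p = 9.65e-10). The brighter probe set did not pass at the premalignant step (log2 change 0.16, adjusted p = 0.601), whereas the mean over both probe sets did (0.88, adjusted p = 0.0152). That mean includes the dimmer probe set, so its call does not count as support either.

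Sesn1, a sestrin that p53 induces and that restrains mTORC1 signalling, fell at the premalignant step and did not pass at the malignant step. It read 8.29, 7.91, 7.76, 7.84 and 7.74 in premalignant cells, against 9.55, 9.56, 8.81 and 9.12 in wild type cells. Every premalignant array lay below every wild type array, as for 24.1% of all tested genes in either direction. Sesn1 was 2.55-fold lower in premalignant cells (7.91 ± 0.22 against 9.26 ± 0.36, SD, n = 5 and 4; adjusted p = 6.83e-04). With spike centring the log2 change was -1.10 and did not pass (adjusted p = 0.0712). Of its other probe sets, 1454699_at fell 1.86-fold (adjusted p = 0.0117) and 1438931_s_at did not pass (log2 change -0.78, adjusted p = 0.0545).

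In lymphomas Sesn1 read 6.48 at the lowest, 7.88 at the median and 8.89 at the highest. Its mean of 7.83 ± 0.68 in lymphomas against 7.91 ± 0.22 in premalignant cells (SD, n = 13 and 5) gave a log2 change of -0.081 ± 0.30 (SE) that did not pass (adjusted p = 0.845). Lymphomas 5 (6.48), 9 (6.67), 2 (7.40) and 10 (7.66) lay below all premalignant arrays, lymphomas 11 (8.89), 7 (8.56) and 4 (8.42) above all of them, and lymphoma 3 level with the highest (8.29 each). The gene was 2.70-fold lower in lymphomas than in wild type cells (adjusted p = 0.00123). That call ended without wild type replicates 1 and 2, whose arrays held erythroid transcripts (log2 -1.14, adjusted p = 0.0512), a setting chosen after the data were seen.

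Plk2, a polo-like kinase induced by p53 and by growth signals, was measured in premalignant cells and in 1 lymphoma. It read 4.60, 2.84, 5.21, 5.24 and 6.13 in premalignant cells, against 2.81, 2.84, 2.82 and 2.83 in wild type cells. Replicate 2 was at the floor and the other 4 premalignant arrays lay above log2 4. That replicate also held the highest erythroid marker sum. The rise was at least 1.74-fold (log2 4.80 ± 1.23 against 2.82 ± 0.012, SD, n = 5 and 4; adjusted p = 0.0172). In lymphomas 12 of 13 arrays lay at 2.69 to 2.82, and lymphoma 1 at 4.28. Plk2 was at least 1.74-fold lower in lymphomas than in premalignant cells (2.89 ± 0.42 against 4.80 ± 1.23, SD, n = 13 and 5; adjusted p = 2.36e-04). Since the premalignant arrays brought Plk2 into the test, its calls at either step do not count as support.

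Ccng1, cyclin G1, a p53 target that recruits a phosphatase to Mdm2, did not pass in any comparison through its brightest probe set. It read 6.82, 8.57, 7.70, 7.80 and 7.44 in premalignant cells, against 7.38, 7.02, 7.82 and 7.66 in wild type cells. Lymphomas ran from 6.44 through a median of 7.31 to 8.60. The change at the malignant step was -0.36 ± 0.29 (log2, SE; adjusted p = 0.346). Its other probe sets fell at that step, 1450016_at 2.71-fold (adjusted p = 6.92e-04 over all probe sets) and 1450017_at 1.88-fold (adjusted p = 0.0233). The mean over the 3 probe sets fell by 0.90 on the log2 scale and passed (adjusted p = 0.0139). The probe sets of Ccng1 thus differed in call. Over the 13 lymphomas their values rose and fell together, with Pearson r of 0.77 to 0.87 between them.

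Aen, an exonuclease that p53 induces in apoptosis, was the only one of the 7 to rise in lymphomas. It read 6.16, 5.27, 5.14, 4.80 and 5.05 in premalignant cells, against 5.18, 5.38, 4.81 and 4.86 in wild type cells, with overlap (log2 change 0.22, adjusted p = 0.56). In lymphomas the lowest, median and highest values were 5.91, 6.86 and 7.68. All but 2 lymphomas, numbers 1 (5.91) and 12 (6.14), lay above every premalignant array, of which replicate 1 was highest at 6.16. Aen averaged 6.73 ± 0.47 in lymphomas and 5.28 ± 0.52 in premalignant cells (SD, n = 13 and 5), 2.73-fold higher (adjusted p = 1.12e-04). Against wild type cells it was 3.19-fold higher with no overlap (adjusted p = 8.99e-06), where 33.7% of all genes had no overlap.

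A second Aen probe set, 1450506_a_at, rose at the earlier step instead. It read 4.48, 4.26, 4.21, 4.05 and 4.22 in premalignant cells, against 3.07, 3.12, 3.16 and 3.34 in wild type cells, so that the groups did not overlap (at least 1.18-fold, adjusted p = 3.59e-04 over all probe sets). At the malignant step it did not pass (log2 change 0.27, adjusted p = 0.338). The remaining one, 1451186_at, was below log2 4 on all arrays.

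**Figure D3:**
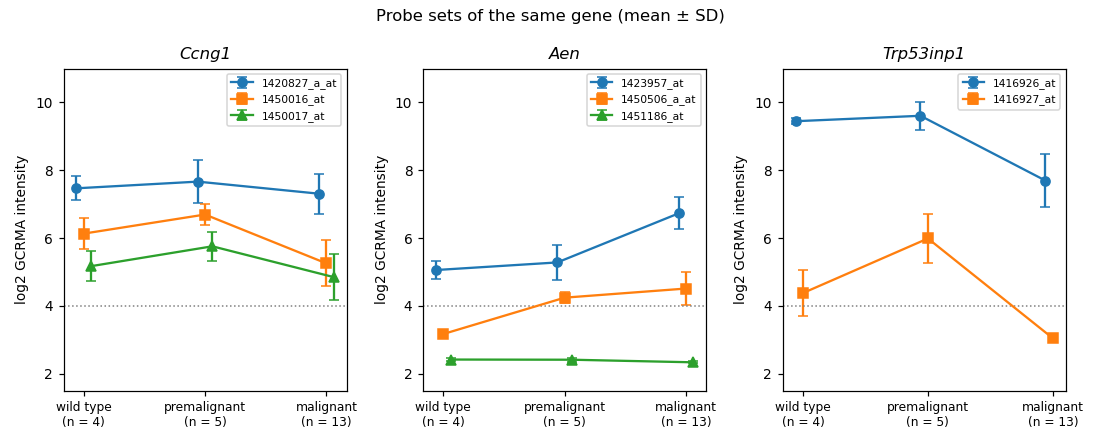
Mean ± SD of log2 GCRMA intensity by stage for each probe set of Ccng1, Aen and Trp53inp1 (n = 4, 5 and 13 arrays); the dotted line is log2 4. The Ccng1 probe sets that fell, the 2 brighter Aen probe sets that rose at different steps, and the dim Trp53inp1 probe set that rose and then dropped to the floor are seen beside the brightest of each gene. That dim Trp53inp1 probe set passed the filter only through the premalignant arrays.

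Among the lymphomas the highest reading of the 9 genes did not fall in the same lymphoma for all of them. Ranks are those of the brightest probe set of each gene unless another is named. Of the 7 tested genes lymphoma 1 was highest for Mdm2 and Plk2, and lymphoma 8 for Ccng1 and Aen. Of the untested genes Cdkn1a was highest in lymphoma 1, and the highest Cdkn2a reading, in lymphoma 8, was below log2 4. Over all tested genes lymphoma 1 was highest for 15.2% and lymphoma 8 for 4.82%. Btg2, Trp53inp1 and Sesn1 were highest in lymphomas 2, 13 and 11. Lymphoma 1 was at the same time lowest of all for Aen and stood at 7.12 for Ccng1, below the median. On other probe sets these ranks differed. For Ccng1, lymphoma 1 was highest on 1450016_at (6.03, with lymphoma 8 at 5.99) and above the median on 1450017_at (5.34, median 4.50). For Aen on 1450506_a_at, lymphoma 12 was lowest (3.56), lymphoma 1 read 4.15, and lymphoma 6 was highest (5.22, with lymphoma 8 at 5.13). Lymphoma 8 was second for Cdkn1a and Trp53inp1 and had 6.04 for Mdm2. Lymphoma 6 came after both for Cdkn1a and was second for Ccng1 (8.03) and Aen (7.25). Lymphoma 11 was lowest for Ccng1, but on 1450017_at lymphoma 12 was (4.08, with lymphoma 11 at 4.27). Lymphoma 5 was lowest for Trp53inp1 and Sesn1. Over all probe sets lymphoma 5 also had the lowest median of the arrays (3.32).

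**Figure D4:**
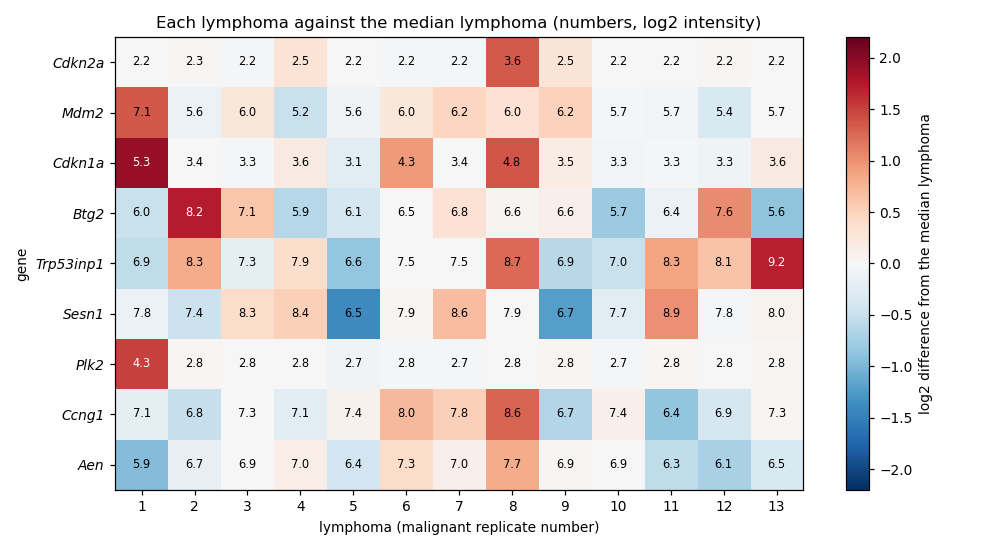
Log2 GCRMA intensity of the brightest probe set of each gene (rows) in each of the 13 lymphomas (columns, numbers in the cells), coloured by the difference from the median lymphoma. Lymphoma 1 is high for Mdm2, Cdkn1a and Plk2, and lymphoma 8 for Cdkn1a, Trp53inp1, Ccng1 and Aen, while its Cdkn2a reading is below log2 4.

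Lymphoma 1 also had the highest sum of stromal markers (3570). Lymphomas 5 (2774) and 11 (2672), next in that order, had 3.11 and 3.35 for Cdkn1a and 2.69 and 2.81 for Plk2, all below log2 4. Lymphoma 8, where Cdkn1a was second highest, had a stromal sum of 433, under the lymphoma median of 773. These lymphomas were picked by their values, and the part of stromal cells in the readings was not tested.

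The SD among lymphomas was 0.79 for Trp53inp1, 0.75 for Btg2, 0.68 for Sesn1 and 0.59 for Ccng1, on the log2 scale. Of all tested genes 92.6%, 91.8%, 89.8% and 85.6% had a smaller one. Mdm2 had an SD of 0.47, which fell to 0.31 without lymphoma 1. Aen had 0.47, and Plk2 had 0.42 with lymphoma 1 and 0.038 without it. Cdkn1a had 0.66, and 0.48 without lymphoma 1.

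Over the 13 lymphomas 27 relations were computed, namely the 15 pairs of the 6 genes measured in at least 6 lymphomas, and each gene with Myc and with the beta-actin 3′ to 5′ difference. None passed after Benjamini-Hochberg adjustment (0 of 27, permutation test with 100000 resamples, two-sided), and 1 had an unadjusted p under 0.05. That pair was Ccng1 and Aen, with Pearson r = 0.69 (permutation p = 0.00994, adjusted 0.268) and Spearman rho = 0.53 (permutation p = 0.0664, adjusted 0.702). Without lymphomas 8 and 11, farthest from the median of Ccng1, r was 0.43, so the relation rested in part on them. With spike centring r was 0.84 (adjusted permutation p = 0.00864). That setting moves all genes of an array together, which can itself raise r, so no conclusion is drawn from it. Mdm2 with Ccng1 had r = 0.18, and 0.67 without lymphomas 1 and 9, and with Aen r = -0.13, and 0.54 without the same lymphomas. With Myc the 6 genes had r between -0.37 and 0.34. The lowest r with the beta-actin difference was that of Mdm2 (r = -0.45, permutation p = 0.11, adjusted 0.979; rho = -0.66, permutation p = 0.016, adjusted 0.433).

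**Figure D5:**
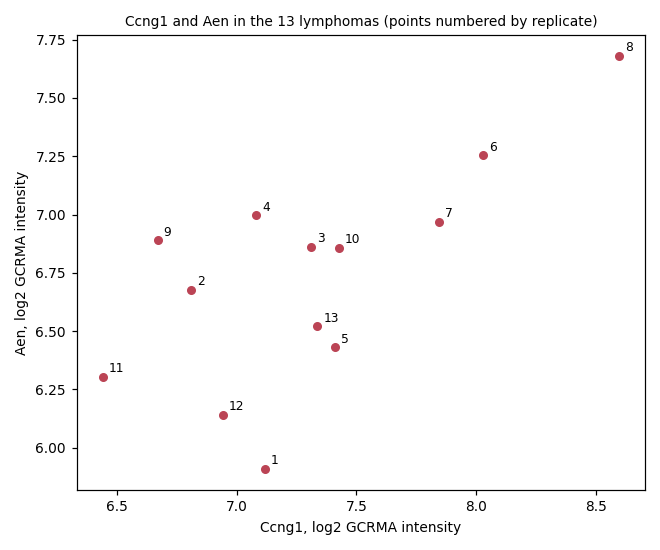
Log2 GCRMA intensity of Aen against that of Ccng1 in the 13 lymphomas, through the brightest probe set of each gene, each point numbered by replicate. Lymphoma 8 is highest on both axes and lymphomas 11 and 12 lie low on both, while lymphoma 1 is lowest for Aen at a Ccng1 of 7.12.

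The 3 tested genes with the highest Pearson r over the 13 lymphomas are given for each gene as a description. Picked as the highest over all tested genes, such values are large by construction. For Ccng1 they were Fbxo22 (0.85), Ppp1cb (0.85) and Mff (0.83). For Aen they were Relb (0.84), Ercc5 (0.83) and Cyp51 (0.80). Mdm2 was nearest to Tmem189 (0.84), Pitpnb (0.84) and Bop1 (0.84), and Btg2 to Mknk1 (0.83), Traf5 (0.82) and Glb1 (0.82). Trp53inp1 was nearest to Iglv1 (0.88), Fam107b (0.86) and Tpm3 (0.85), and Sesn1 to Ctss (0.85), Tap2 (0.84) and Sft2d1 (0.83).

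Of 37 further p53 targets 32 were on the array and 24 were tested. At the malignant step 3 rose and 7 fell, with a median log2 change of -0.14. These 10 of 24 are near the 42.1% of all tested genes that passed. The death domain protein Pidd1 rose 2.16-fold (5.33 ± 0.19 in lymphomas against 4.22 ± 0.43 in premalignant cells, SD, n = 13 and 5; adjusted p = 1.11e-05), the spindle protein Ckap2 1.55-fold and the ribosomal protein Rps27l 1.35-fold. The tetraspanin Cd82 fell 5.44-fold, the epoxide hydrolase Ephx1 4.93-fold and the inflammatory caspase Casp1 at least 2.62-fold. At the premalignant step 2 rose, Ckap2 (at least 2.96-fold) and Rps27l (2.21-fold), and 4 fell, among them Ephx1 (3.59-fold), Cd82 (2.07-fold) and Tap1 (2.04-fold). Against wild type cells 3 rose and 10 fell in lymphomas, the largest fall being that of Ephx1 (17.7-fold). The shares over all tested genes were 26.8% at the premalignant step and 61.5% in lymphomas against wild type cells.

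Some of these targets are given by lymphoma, and were chosen after their values were seen. Zmat3, an RNA-binding p53 target, was highest in lymphomas 8 (5.51) and 6 (4.81). Lymphoma 1 followed at 4.06, close to lymphomas 13 (3.95), 7 (3.93) and 10 (3.90) just below log2 4. Other targets were high elsewhere, with Dram1, an autophagy protein, above log2 4 in lymphomas 7 (5.10), 3 (4.74) and 6 (4.72), and Phlda3, an Akt repressor, in lymphomas 6 (4.39), 13 (4.15) and 10 (4.13). Bbc3, which encodes the death protein Puma, was highest in lymphoma 8 (5.60), with lymphoma 10 next at 4.61. Pmaip1, which encodes the death protein Noxa, was highest in lymphomas 1 (5.89) and 8 (5.37), and the other lymphomas lay at 4.04 to 4.98. Of the 24 tested targets 4 (16.7%) were highest in lymphoma 8 and 2 (8.33%) in lymphoma 1. Zmat3 itself was not tested, as it was above log2 4 on only 3 arrays.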

How the data were processed

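RNA of 22 samples was hybridised to Affymetrix MOE430A arrays, 1 per sample. The authors made the deposited intensity values with GCRMA, per the submitters' processing notes, which subtracts a sequence-based background, normalises arrays and summarises probe sets. Neither a version nor joint processing of the arrays is stated. The values are linear, and their log2 was used. Of 22690 probe sets 20380 had 1 gene symbol, 691 several and 1555 none, besides 64 controls, in a platform annotation that can be old. Probe sets above log2 4 on at least 4 arrays were kept (10789, of which 9832 had 1 symbol, for 6437 genes), and each gene was tested through the one with the highest mean.

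The 2 groups of a comparison alone entered its fit in limma 3.58.1 under R 4.3.3 (lmFit and eBayes, a two-sided test), and p-values were adjusted over all 6437 genes. Group means below log2 4 were set to 4 for folds, written as at least N-fold. Changes are the first-named stage minus the second. On simulated data 70%, 81% and 73% of 2-fold and 97%, 97% and 98% of 4-fold changes were recovered for premalignant against wild type, malignant against premalignant and malignant against wild type arrays. Alternatives were no filter or a floor of log2 5, the mean over probe sets, every probe set, 1 fit over the 3 groups, centring on the array median or on the mean of the hybridisation spikes, the replicate number as a block, and leaving out each array. Correlations used numpy 2.4.6. The labels call the samples biological replicates, and only the lymphomas are said to come from independent mice, so other p-values measure the spread between samples. The number of arrays limits the precision. The members and lists were chosen with earlier results of these data known. Named beside the members are up to 3 called genes a list and direction and the 3 nearest genes by correlation. Zmat3, Bbc3, Pmaip1, Dram1, Phlda3, Klhl9 and Cdkn2b are named outside that rule. No promoter of Trp53inp1 was used.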

Additional observations from a re-analysis of the deposited data

Results flagged for a closer look

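Single arrays stood apart from the rest of their group for 2 of the 20 group and measure combinations tested in groups of 4 or 5 arrays, by the gap to the nearest array over the range of the group (Dixon's 95% criterion). Chance flags about 1 in 20 such groups. Cdkn1a read 3.60 in wild type replicate 2, with the nearest wild type array at 3.25. Cdkn2a read 2.35 in premalignant replicate 1, with the nearest premalignant array at 2.28. Both values lie below log2 4, where the array does not measure the gene.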

How the results depend on the processing

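The calls of the 7 tested genes held without any single array, with 2 genes for the premalignant step, 5 for the malignant step and 5 for lymphomas against wild type cells. Over all genes, leaving out 1 array gave 1292 to 1804, 2236 to 2739 and 3585 to 3978 calls. The premalignant comparison called 1 of the genes without the filter and with a stricter filter of log2 5 (Sesn1; Plk2 was not tested there), 1 with spike centring (Plk2), and 4 with the mean over probe sets, which added Trp53inp1 and Aen (adjusted p = 0.0175). The Trp53inp1 mean includes a probe set that passed the filter only through the premalignant arrays, so that call does not count as support. Under spike centring the median over all genes was 0.20, 0.22 and 0.43 (main setting -0.054, 0.089 and 0.041), and the calls were 455 higher and 105 lower (560, against 818 and 907), 1209 and 562 (1771, against 1597 and 1114) and 2349 and 788 (against 2045 and 1911). Calls over all genes were 4929 and 7921 in the malignant comparisons without the filter, and 4282 and 5987 with every probe set tested. The replicate number as a block (replicate block) gave 1418, 1677 and 2905 calls and again 2, 5 and 5 of the genes. Without the 3 arrays with erythroid transcripts, a setting chosen after the data were seen, 1175, 2382 and 3185 genes were called, and 2, 5 and 4 of the genes described here. Deviations of same-numbered arrays from their group means correlated at -0.11 to 0.21. No such values were computed for differently numbered arrays, so whether the numbers pair the arrays cannot be told.

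Changes that did not pass and turned sign were these. At the premalignant step Mdm2 was 0.16 with spike centring and -0.24 to 0.042 without single arrays, Btg2 -0.10 as the mean over probe sets and -0.052 to 0.11 without single arrays, and Ccng1 -0.30 without the arrays with erythroid transcripts and -0.029 to 0.41 without single arrays. At the malignant step Sesn1 was 0.055 with spike centring and -0.17 to 0.032 without single arrays. Against wild type cells Ccng1 was 0.23 with spike centring, and Plk2 -0.052 to 0.080 without single arrays, the lowest without lymphoma 1. Spike centring, which moves all genes of an array together, also gave 1 relation that passed among the 27 over lymphomas, against 0. The causes were not tested.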
